A study of Mus musculus with 6 samples.

Results

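Macrophages from tumours of 2 Xkr8 knockout clones were compared with each other across all genes, which asks how far 2 groups of the same genotype differ. The groups are KO clone 2 (mouse 1 and mouse 2) and KO clone 1 (mouse 1 and mouse 2), chosen by the clone named in the sample titles, and they are 4 of the 6 libraries of the series. The macrophages were sorted by flow cytometry from MC38 tumours, a mouse colon carcinoma line, after 16 days under the skin of C57BL6 mice with no further treatment. The other 2 libraries, labelled WT, are given beside the clones as a description. All 4 libraries compared have the genotype Xkr8 KO in the labels, which do not say which cells carry the knockout. A clone is a line grown from a single cell, so the knockout is read here as being in the tumour cells and the sorted macrophages as cells of the host. Each side of the comparison is 1 clone in 2 mice, so a trait of the clone and a trait of its 2 tumours cannot be told apart, and p-values measure the spread between 2 mice a side.

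Xkr8 is a scramblase of the plasma membrane that caspases switch on in dying cells, which then show phosphatidylserine on their surface to cells that engulf them. Macrophages of a tumour engulf dying cells, present peptides to helper T cells on MHC class II molecules under the control of the coactivator Ciita, and burn glucose by glycolysis where oxygen is short. A sorted population can also hold RNA of the fibroblasts and tumour cells around it, which make most of the collagens and other proteins of the matrix.

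The 4 libraries were of like depth, with totals of 37090034 to 40022755 estimated counts and 18193 to 18865 gene symbols detected. The 45S ribosomal RNA precursor Rn45s took 7.12% of the counts of clone 2 mouse 1 and 2.06% to 2.92% of the other 3, and the same number of genes passed the test without it. WT mouse 2 stands apart with 24.6% and a total of 20038047, and it is not in the test. The mice of clone 2 were closer to each other than those of clone 1, with a median absolute log2 difference per gene of 0.111 against 0.271. More than 2-fold differences between the 2 mice were found for 558 genes in clone 2 and for 996 genes in clone 1. Between the clone means, 648 genes differed more than 2-fold, and the median absolute log2 difference was 0.182. These are means of 2 mice and not directly comparable with differences between single mice. Single libraries of different clones correlated at 0.9746 to 0.9815 in log2 level, beside 0.9817 within clone 1 and 0.9890 within clone 2.

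Of 15141 genes tested, 79 passed an adjusted p of 0.05 (0.522%), with 39 higher in clone 2 (0.258%) and 40 lower (0.264%). Whether or not they passed, 47.6% of the tested genes had a positive fold change and 52.4% a negative one. Matrix genes stood on both sides, with Aspn, Ogn and Lox among the higher genes and Fbln2, Postn and Col18a1 among the lower ones. H2-Aa, H2-Eb1 and Ciita of MHC class II presentation were higher, and the near-copies Hspa1a and Hspa1b, which encode a stress-induced heat shock protein, were lower. The test was edgeR's quasi-likelihood F test on the 4 libraries with 2 residual degrees of freedom, and 1744 genes had an unadjusted p under 0.05. DESeq2 on the same 4 libraries called 465 genes, and both clone 2 libraries lay above both clone 1 libraries in 2553 genes (16.9%) and below them in 3292 (21.7%). With the WT libraries in the fit, all 6 libraries sharing 1 estimate of the spread, 0 genes passed, 502 had an unadjusted p under 0.05 and the smallest adjusted p was 0.181. On those 6 libraries DESeq2, added after the data were seen, called 117 genes. Leaving out clone 1 mouse 1 gave 2337 calls, clone 1 mouse 2 gave 4023, clone 2 mouse 1 gave 250 and clone 2 mouse 2 gave 216, each from a fit in which 1 lone sample is assumed to vary like the other group. All 79 genes were among the calls when either clone 1 library was left out, and 74 and 73 of them without clone 2 mouse 1 and clone 2 mouse 2. Levels are CPM, the counts scaled to a total of 1000000 per library, and log2 fold changes are clone 2 against clone 1 with their standard error (SE).

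**Figure D1:**
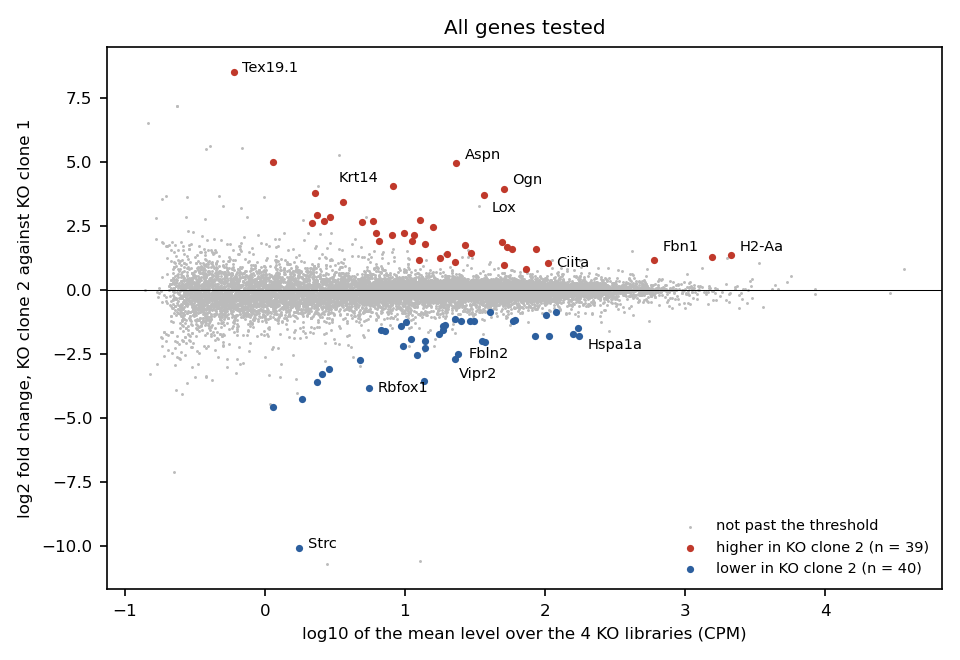
Log2 fold change of clone 2 against clone 1 (vertical axis) for the 15141 genes tested, by the log10 of their mean CPM over the 4 KO libraries (horizontal axis). The 39 genes higher in clone 2 are red and the 40 lower genes blue, and fitted values of genes at 0 in a clone, such as Strc and Tex19.1, depend on a prior count.

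In clone 2, 3 genes of MHC class II presentation rose. H2-Aa, the alpha chain of the class II molecule I-A, stood at 1077 and 1322 CPM in clone 1 and at 2960 and 3147 CPM in clone 2, a log2 fold change of 1.37 ± 0.17 (adjusted p = 0.0434). H2-Eb1, the beta chain of I-E, went from 831 and 973 CPM to 2046 and 2325 CPM (1.30 ± 0.16, adjusted p = 0.0363). Ciita, the coactivator that switches these genes on, went from 64.4 and 72.3 CPM to 136 and 146 CPM (1.07 ± 0.12, adjusted p = 0.0308). The groups did not overlap in any of the 3, and the 2 mice of a clone lay close together. H2-Aa and H2-Eb1 lie 18044 bases apart on chromosome 17, and Ciita lies on chromosome 16 (chr16:10480059-10528418, GRCm38). Of the 16 genes of class II presentation tested, 3 passed, all higher, 14 had a positive value, and 12 had both clone 2 libraries above both clone 1 libraries, an order that 16.9% of all tested genes showed. The list median was 0.72, beside -0.02 over all tested genes, of which 0.258% were called higher and 47.6% were positive. Values just short of the threshold belonged to H2-Ab1, the beta chain of I-A (1.25 ± 0.17, adjusted p = 0.0562), and to Cd74, the invariant chain that guides class II molecules through the cell (1.08 ± 0.17, adjusted p = 0.0732). Cd74 stood at 2048 and 2348 CPM in clone 1 and at 4383 and 4731 CPM in clone 2. The 16 genes summed to 10818 and 11138 CPM in clone 1 and to 18652 and 20196 CPM in clone 2, with WT mouse 1 at 7864 and WT mouse 2 at 14568 CPM. WT mouse 2 thus lay between the clones and WT mouse 1 below both. With Rn45s left out of the totals, which was tried after the data were seen, clone 1 was at 11088 and 11472 CPM. Clone 2 was then at 20082 and 20621 CPM, with WT mouse 2 just below it at 19330 CPM and WT mouse 1 at 7980 CPM. H2-Eb1 was at 686 and 2140 CPM in WT, so WT mouse 2 was within the clone 2 range. Markers of dendritic cells, which also carry class II, were checked beside these genes, and their part in the result was not tested. Of 25 tested 0 passed, 13 were positive, the median was 0.01, and the list summed to 2206 and 1812 CPM in clone 1 and 1874 and 2013 CPM in clone 2. Xcr1 of conventional dendritic cells stood at 23.1 and 10.9 CPM in clone 1 and 13.9 and 11.8 CPM in clone 2. The dendritic cell growth factor receptor Flt3 stood at 1.97 and 1.64 CPM in clone 1 and at 2.95 and 3.37 CPM in clone 2.

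The promoters of the 2 class II genes that passed are shown because both hold a CCAAT box, a motif of class II promoters. They are the 250 bases before the start in RefSeq's GRCm38.p6, 5′ to 3′ on the strand of the gene, with CCAAT or its reverse complement in capitals.
H2-Aa, chr17:34287824-34288073, minus strand: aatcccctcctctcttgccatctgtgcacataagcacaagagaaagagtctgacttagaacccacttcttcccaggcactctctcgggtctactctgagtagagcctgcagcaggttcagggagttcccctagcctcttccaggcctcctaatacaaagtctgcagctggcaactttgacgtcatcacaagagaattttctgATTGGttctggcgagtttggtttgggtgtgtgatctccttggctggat
H2-Eb1, chr17:34305617-34305866, plus strand: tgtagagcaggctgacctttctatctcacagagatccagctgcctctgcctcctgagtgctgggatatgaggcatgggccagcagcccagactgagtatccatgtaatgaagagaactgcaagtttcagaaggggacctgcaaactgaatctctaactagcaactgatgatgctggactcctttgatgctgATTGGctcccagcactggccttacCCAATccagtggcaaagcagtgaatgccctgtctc
CCAAT, searched on both strands in windows of 250 bases before to 50 after the start, was in 10 of the 13 class II promoters (12 of 16 genes matched), or 76.9%. It was in 12289 of all 32851 promoters of that length (37.4%).

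Genes of glycolysis had negative values in 23 of 24 tested members, and no single gene passed. Both clone 2 libraries were below both clone 1 libraries in 20 of them, beside 21.7% of all tested genes, and 18 had a negative value at an unadjusted p under 0.05, as did 6.31% of all tested genes. The median was -0.50, and the smallest adjusted p was 0.0712. Slc16a3, the exporter of lactate, had that p and stood at 412 and 425 CPM in clone 1 and 224 and 265 CPM in clone 2 (-0.75 ± 0.11). Slc2a1, the main glucose transporter, stood at 317 and 252 CPM in clone 1 and at 125 and 175 CPM in clone 2 (-0.90 ± 0.17, adjusted p = 0.108). Triose phosphate isomerase Tpi1 (-0.68 ± 0.13) and the platelet phosphofructokinase Pfkp (-0.58 ± 0.13) had the next smallest p. The member with a positive value was Pfkfb4, which makes an activator of phosphofructokinase (0.29 ± 0.11). Summed over the list the levels were 17192 and 16225 CPM in clone 1 and 10281 and 12328 CPM in clone 2, with WT at 18703 and 16317 CPM. Clone 2 was below both WT mice. With Rn45s left out of the totals, which was tried after the data were seen, WT was at 18980 and 21651 CPM, clone 1 at 17621 and 16713 CPM and clone 2 at 11070 and 12588 CPM, so clone 1 was then below both WT mice as well. Between the 2 mice of a clone the median log2 difference of these genes was 0.06 in clone 1 and -0.08 in clone 2.

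Genes of the response to low oxygen, a list that also holds the regulators Hif1a and Arnt, had negative values in most tested members too. Hif1a and Arnt had small positive values, of 0.04 and 0.05. Of 32 tested members of the hypoxia list, 0 passed, 28 had a negative value, and the median was -0.37. Both clone 2 libraries were below both of clone 1 in 23, beside 21.7% of all tested genes. A negative value at an unadjusted p under 0.05 was found in 13, beside 6.31% of all tested genes. The smallest p belonged to Ero1l, which forms disulfide bonds in the endoplasmic reticulum, at 632 and 508 CPM in clone 1 and 269 and 296 CPM in clone 2 (-0.98 ± 0.13, adjusted p = 0.0556). Adm, a vasodilator peptide, stood at 7.68 and 5.10 CPM in clone 1 and at 1.05 and 1.80 CPM in clone 2 (-2.14 ± 0.33, adjusted p = 0.0712). The lipid droplet protein Hilpda had a value of -1.13 ± 0.19 (adjusted p = 0.0799) and Bnip3, a receptor for the removal of mitochondria, -0.59 ± 0.12 (adjusted p = 0.149). The scaffold protein Ppfia4 went the other way, with 68.3 and 63.1 CPM in clone 1 and 105 and 112 CPM in clone 2 (0.75 ± 0.10, adjusted p = 0.0562). Hif1a, the factor that oxygen makes unstable at the protein level, had a like RNA level in both clones, 400 and 411 CPM in clone 1 and 394 and 426 CPM in clone 2 (0.04 ± 0.11). Summed over the list the levels were 3912 and 3775 CPM in clone 1 and 2799 and 3327 CPM in clone 2, with WT mouse 1 above all of these at 4404 CPM and WT mouse 2 below them at 2438 CPM. With Rn45s left out of the totals WT mouse 2 was at 3235 CPM, between the clone 2 mice at 3014 and 3397 CPM. Pdk1 is on both lists.

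**Figure D2:**
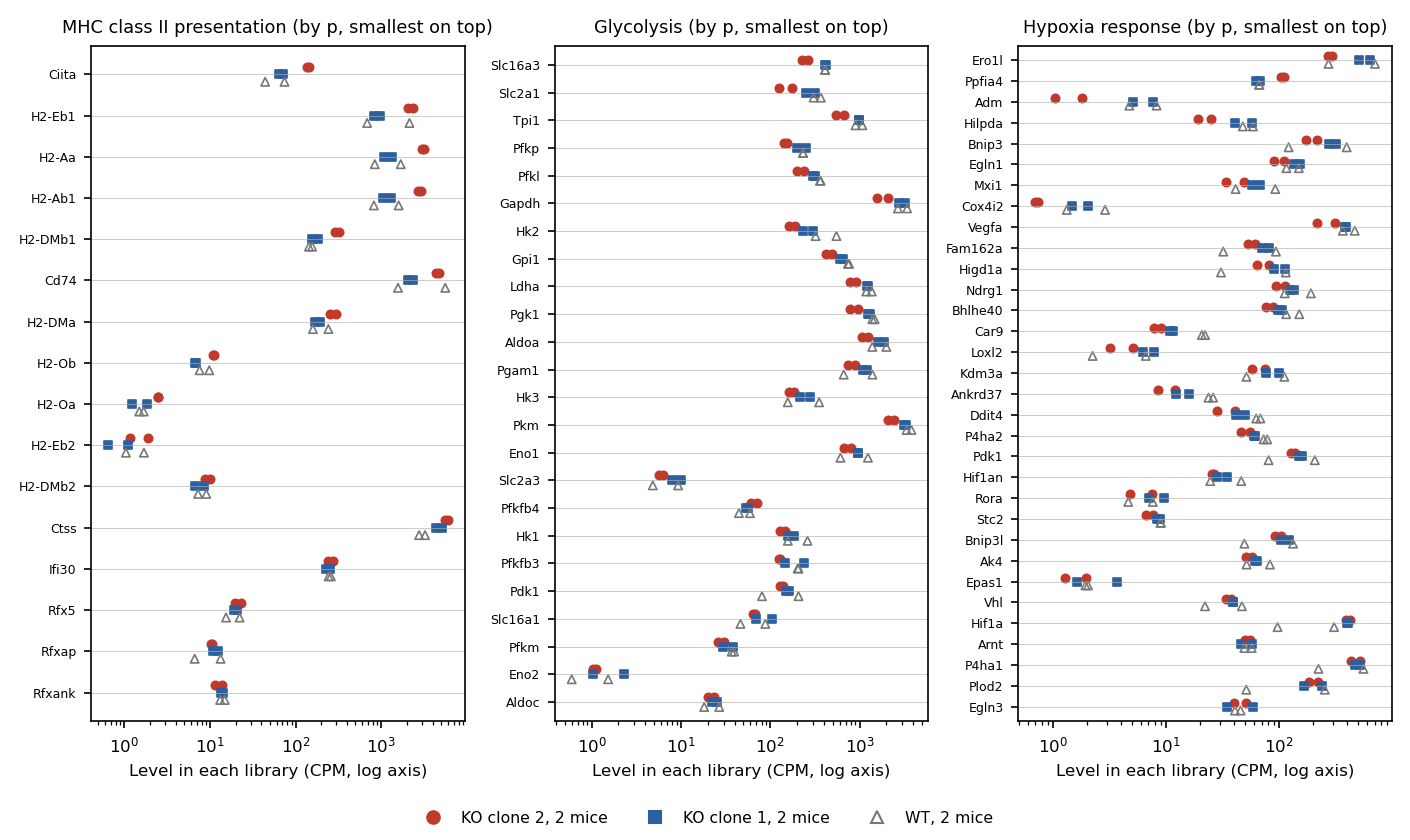
Level of each tested gene of 3 lists in every library (CPM, log axis): 16 genes of MHC class II presentation, 24 of glycolysis and 32 of the hypoxia response, ordered by p. Red circles are the 2 clone 2 mice, blue squares the 2 clone 1 mice and grey triangles the 2 WT mice. Clone 2 lies to the right of clone 1 in 12 of 16 class II genes and to the left in 20 of 24 glycolysis and 23 of 32 hypoxia genes. Among all tested genes the shares were 16.9% to the right and 21.7% to the left.

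The promoters of the 2 glycolysis genes with the smallest p are shown because each holds ACGTG, the core of the sequence that hypoxia-inducible factors bind. They are the 250 bases before the start, with ACGTG or its reverse complement in capitals.
Slc16a3, chr11:120948817-120949066, plus strand: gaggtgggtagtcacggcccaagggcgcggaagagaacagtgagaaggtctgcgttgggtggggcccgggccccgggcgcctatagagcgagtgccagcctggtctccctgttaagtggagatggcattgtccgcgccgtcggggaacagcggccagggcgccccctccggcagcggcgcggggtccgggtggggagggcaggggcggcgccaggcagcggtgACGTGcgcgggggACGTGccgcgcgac
Slc2a1, chr4:119108495-119108744, plus strand: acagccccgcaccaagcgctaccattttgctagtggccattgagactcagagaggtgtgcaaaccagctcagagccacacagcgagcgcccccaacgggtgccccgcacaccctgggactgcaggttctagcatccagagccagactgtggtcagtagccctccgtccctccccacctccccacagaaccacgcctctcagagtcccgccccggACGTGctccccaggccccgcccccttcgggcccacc
ACGTG was in 18 of 36 glycolysis promoters (50%, 23 of 24 genes matched) and in 19 of 36 hypoxia promoters (52.8%, 25 of 32 genes matched). Of all 32851 promoters, 6447 (19.6%) held it.

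Of 24 chaperone genes tested, the near-copies Hspa1a and Hspa1b fell and the other 22 did not pass. Among all tested genes 0.264% were called lower. Hspa1a stood at 265 and 280 CPM in clone 1 and at 73.6 and 79.2 CPM in clone 2 (-1.80 ± 0.11, adjusted p = 0.00766). Hspa1b stood at 217 and 271 CPM in clone 1 and at 68.5 and 79.0 CPM in clone 2 (-1.70 ± 0.15, adjusted p = 0.0175). The 2 genes encode near-copies of the stress-induced Hsp70, so the division of reads between them is uncertain. Their sum, which does not depend on that division, was 482 and 550 CPM in clone 1 and 142 and 158 CPM in clone 2, beside 1505 and 594 CPM in WT. Clone 2 was thus below all 4 other libraries. Over the list 13 had a positive value, and the median was 0.02. Other heat-inducible members had values of both signs: Hspb1, a small heat shock protein, was at -1.48 ± 0.28, Hspa4l, an Hsp110 member, at 0.65 ± 0.12, both with an adjusted p of 0.113, and Dnaja1, a co-chaperone of Hsp70, at 0.53 ± 0.16 (adjusted p = 0.301). These 3 were picked after their values were seen. The RNA of Hsf1, the factor that drives the response, was at 30.6 and 33.0 CPM in clone 1 and at 26.6 and 34.0 CPM in clone 2 (-0.05 ± 0.14).

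The promoters of Hspa1a and Hspa1b are printed to show how alike the 2 copies are, with the inverted heat shock repeat GAANNTTC in capitals.
Hspa1a, chr17:34972157-34972406, minus strand: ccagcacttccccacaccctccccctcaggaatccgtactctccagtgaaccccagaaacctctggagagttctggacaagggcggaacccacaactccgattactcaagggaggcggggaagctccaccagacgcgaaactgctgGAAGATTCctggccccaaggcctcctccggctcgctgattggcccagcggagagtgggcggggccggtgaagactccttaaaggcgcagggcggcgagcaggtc
Hspa1b, chr17:34959239-34959488, minus strand: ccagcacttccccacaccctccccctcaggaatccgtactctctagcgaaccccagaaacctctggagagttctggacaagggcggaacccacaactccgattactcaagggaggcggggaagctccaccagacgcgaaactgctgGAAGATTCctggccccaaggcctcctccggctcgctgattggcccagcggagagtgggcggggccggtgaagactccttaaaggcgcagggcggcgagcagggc
They were identical at 247 of 250 positions. GAANNTTC was in 12 of 25 promoters of the chaperone list (48.0%, 19 of 24 genes matched) and in 2582 of 32851 promoters (7.86%), and the heat shock element of 3 such units in 5 (20%) and 198 (0.603%). N stands for any base, and both strands were searched. The GAANNTTC and CCAAT searches were chosen after the data were seen.

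The called genes of the matrix with the largest fold changes were Aspn, Ogn and Lox. Aspn, a small leucine-rich proteoglycan that binds collagen, was at 1.45 and 1.48 CPM in clone 1 and at 44.5 and 45.4 CPM in clone 2 (4.96 ± 0.16, adjusted p = 0.000823). Ogn, another member of that family, was at 5.27 and 7.01 CPM in clone 1 and at 85.6 and 105 CPM in clone 2 (3.98 ± 0.19, adjusted p = 0.00466). Lox, which crosslinks collagen and elastin, was at 7.22 and 3.21 CPM in clone 1 and at 64.7 and 70.3 CPM in clone 2 (3.73 ± 0.35, adjusted p = 0.0179). Aspn (chr13:49544443-49567565, GRCm38) and Ogn (chr13:49608046-49624501) are neighbours on chromosome 13, 40481 bases apart. In WT the 3 genes differed widely between the mice: Aspn was at 35.4 and 6.09 CPM, Ogn at 68.6 and 4.74 CPM, and Lox at 16.7 and 4.24 CPM. The low library in each case was WT mouse 2. Bgn, a proteoglycan of the same family as Aspn and Ogn that was looked up after their values were seen, had a negative value and did not pass (-0.85 ± 0.32, adjusted p = 0.399).

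Of 43 tested matrix glycoproteins and crosslinking enzymes, 6 were higher and 2 lower, 25 had a positive value, and the median was 0.13. Among all tested genes 0.258% were higher, 0.264% lower and 47.6% positive. Fbn1, the main protein of microfibrils, rose from 344 and 394 CPM to 807 and 860 CPM (1.20 ± 0.14, adjusted p = 0.0316). The angiogenesis inhibitor Thbs2 was at 40.6 and 44.6 CPM in clone 1 and at 120 and 139 CPM in clone 2 (1.62 ± 0.12, adjusted p = 0.0136). WT was at 200 and 103 CPM, so clone 1 was below all other libraries. Lama4, a laminin chain of vessel walls, rose from 2.26 and 2.16 CPM to 10.8 and 9.80 CPM (2.25 ± 0.20, adjusted p = 0.0175). Both WT mice lay between the clones in Fbn1 and Lama4. The lower members were Fbln2, a fibulin of elastic fibres, from 51.5 and 30.4 CPM to 7.70 and 6.4 CPM (-2.50 ± 0.28, adjusted p = 0.0308), and Postn, a matrix protein of wounds and tumour stroma, from 74.0 and 45.7 CPM to 14.8 and 13.7 CPM (-2.03 ± 0.24, adjusted p = 0.0339). The list as a whole thus had members far out on both sides and a median near 0.

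Collagen chains were split in the same way. Of 20 tested, 1 was higher and 3 lower, 10 were positive, and the median was -0.06. Beside these, 0.258% of all tested genes were higher, 0.264% lower and 47.6% positive. Col11a1, a fibrillar chain, was at 0.935 and 1.78 CPM in clone 1 and at 7.35 and 9.85 CPM in clone 2 (2.68 ± 0.35, adjusted p = 0.0456). WT was at 8.88 and 10.6 CPM, so clone 1 was below all other libraries. Col18a1, whose C-terminal fragment is endostatin, fell from 105 and 157 CPM to 32.2 and 42.9 CPM (-1.78 ± 0.23, adjusted p = 0.0442). Col7a1, the chain of anchoring fibrils, fell from 226 and 283 CPM to 78.8 and 100.5 CPM (-1.49 ± 0.16, adjusted p = 0.0308). Col12a1, a fibril-associated chain, fell from 11.2 and 10.4 CPM to 3.05 and 3.92 CPM (-1.61 ± 0.18, adjusted p = 0.0308). Clone 2 was below both WT mice in Col18a1, Col7a1 and Col12a1. Col1a1 had a value of -1.69 ± 0.38 and did not pass (adjusted p = 0.176), with clone 1 mouse 1 at 75.2 CPM and clone 1 mouse 2 at 35.6 CPM.

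Enzymes that cut the matrix were lower where they passed. Of 21 tested metalloproteinases and inhibitors, 0 were higher and 2 lower, 15 were negative, and the median was -0.40. Over all tested genes the shares were 0.258% higher, 0.264% lower and 52.4% negative. Mmp12, the elastase of macrophages, fell from 197 and 137 CPM to 50.1 and 45.1 CPM (-1.77 ± 0.20, adjusted p = 0.0308). Adamts9, a protease that cuts proteoglycans, fell from 23.1 and 18.4 CPM to 2.97 and 4.08 CPM (-2.53 ± 0.20, adjusted p = 0.0151). The inhibitor Timp3 stood at 8.02 and 5.63 CPM in clone 1 and at 1.67 and 1.18 CPM in clone 2 (-2.21 ± 0.32, adjusted p = 0.0602), and Timp2 had a positive value (0.60 ± 0.11, adjusted p = 0.0979).

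**Figure D3:**
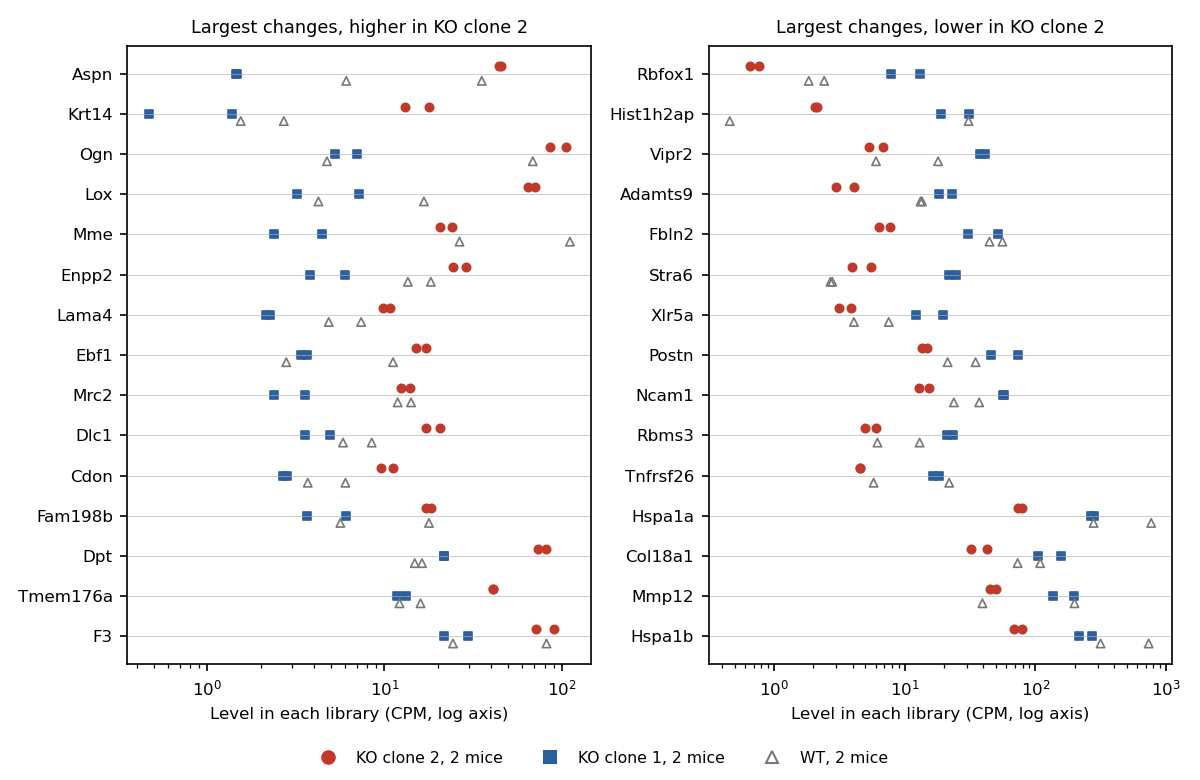
Level in every library (CPM, log axis) of the 15 genes with the largest fold change in each direction among those that passed the test with a mean of at least 5 CPM. Red circles are clone 2, blue squares clone 1 and grey triangles WT mice. Aspn has the widest gap of the higher genes, with the clone 1 mice at 1.45 and 1.48 CPM and the clone 2 mice at 44.5 and 45.4 CPM, and Rbfox1 leads the lower genes.

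Surface proteins, enzymes and regulators made up most of the remaining higher genes of the 15. Mme, the peptidase neprilysin (CD10), rose from 2.39 and 4.42 CPM to 20.6 and 24.1 CPM (2.74 ± 0.30, adjusted p = 0.0308), with both WT mice above clone 2 at 111 and 26.5 CPM. Enpp2, the enzyme autotaxin that makes lysophosphatidic acid, rose from 3.79 and 5.99 CPM to 24.4 and 29.0 CPM (2.47 ± 0.25, adjusted p = 0.0254). Dpt, the matrix protein dermatopontin, rose from 21.5 CPM in both clone 1 mice to 73.4 and 81.2 CPM (1.87 ± 0.11, adjusted p = 0.00766). Clone 2 was above both WT mice in Enpp2 and Dpt and below them in Mme. F3, tissue factor, rose from 21.8 and 29.4 CPM to 71.6 and 90.5 CPM (1.68 ± 0.19, adjusted p = 0.0308). Mrc2, a receptor that takes up collagen fragments, rose from 3.56 and 2.37 CPM to 12.4 and 13.9 CPM (2.18 ± 0.22, adjusted p = 0.0254), into the range of WT at 11.9 and 14.1 CPM. Ebf1, a transcription factor of B cells and of stromal precursors, rose from 3.63 and 3.40 CPM to 15 and 17.2 CPM (2.22 ± 0.16, adjusted p = 0.0130). It was the single called member of 8 tested B and plasma cell genes, and the list summed to 31.7 and 22.9 CPM in clone 1 and 39.6 and 45.8 CPM in clone 2. Cd79b of B cells stood at 9.48 and 8.03 CPM in clone 1 and at 11.5 and 13.4 CPM in clone 2 (0.54 ± 0.15, adjusted p = 0.271), and Cd79a was between 0.105 and 0.250 CPM in the 4 libraries. Their part in the value of Ebf1 was not tested. The membrane proteins Tmem176a (1.75 ± 0.14, adjusted p = 0.0151) and Tmem176b (1.60 ± 0.13, adjusted p = 0.0160), an overlapping pair of genes, were summed, since overlapping genes share reads: 41.3 and 42.4 CPM in clone 1, 130 and 127 CPM in clone 2, and 42.1 and 44.5 CPM in WT. Clone 2 alone stood apart in this pair. Dlc1 (2.17 ± 0.21), the hedgehog co-receptor Cdon (1.94 ± 0.18) and Fam198b (1.91 ± 0.24) completed the higher genes, with adjusted p of 0.0175 to 0.0442.

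Keratins of the basal and stressed epidermis were higher at a low level. Krt14 rose from 0.467 and 1.38 CPM to 13.1 and 17.9 CPM (4.09 ± 0.44, adjusted p = 0.0308), and its neighbour Krt16, named here after its values were seen, from 0.857 and 0.566 CPM to 4.07 and 5.15 CPM (2.71 ± 0.31, adjusted p = 0.0319). The partner of Krt14 in basal keratinocytes, Krt5, was at 0 to 0.108 CPM in the 4 libraries. Of the 12 listed keratinocyte genes 11 were among the deposited symbols and 4 were tested. The 11 summed to 4.91 and 5.28 CPM in clone 1 and to 18.2 and 23.3 CPM in clone 2. Krt14 made up most of the clone 2 sums.

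The lower genes outside the lists above are given next, from the 15 with the largest fold change. Rbfox1, a splicing factor of neurons and muscle, fell from 7.81 and 13 CPM to 0.775 and 0.653 CPM (-3.83 ± 0.36, adjusted p = 0.0179). Vipr2, a receptor for vasoactive intestinal peptide, fell from 37.9 and 41.3 CPM to 5.32 and 6.87 CPM (-2.68 ± 0.16, adjusted p = 0.00766). Ncam1, a neural cell adhesion molecule also known as CD56, fell from 56.9 and 58.0 CPM to 12.9 and 15.3 CPM (-2.0 ± 0.12, adjusted p = 0.00766). Clone 1 was above both WT mice in all 3 genes. Stra6, a receptor for the carrier of retinol, fell from 21.7 and 24.7 CPM to 3.95 and 5.57 CPM (-2.27 ± 0.19, adjusted p = 0.0160), with WT below both clones at 2.71 and 2.79 CPM. The RNA-binding protein Rbms3 (-1.99 ± 0.16, adjusted p = 0.0160) and the decoy receptor Tnfrsf26 (-1.90 ± 0.16, adjusted p = 0.0160) were also lower. Hist1h2ap (-3.55 ± 0.30) and the X-linked Xlr5a (-2.16 ± 0.28) belong to families of near-identical genes and are uncertain one by one. Of 29 tested histone genes of that kind in the replication-dependent list, from which Hist1h2ap is absent, 0 passed, with 7 positive values and a median of -0.11. Xlr5a and its copy Xlr5c summed to 15.9 and 25.5 CPM in clone 1 and to 3.6 and 4.39 CPM in clone 2.

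Several called genes encode secreted signals or their receptors, and these were picked after their values were seen. Gdnf, a growth factor for neurons, was lower (-1.70 ± 0.18, adjusted p = 0.0308), with 23.5 and 30.2 CPM in clone 1 and 8.02 and 8.18 CPM in clone 2. Gfra2, a co-receptor of the same ligand family, was lower too (-1.38 ± 0.16, adjusted p = 0.0362), with 24.6 and 29.8 CPM against 9.47 and 11.1 CPM. The ligands Wnt5a (-1.19 ± 0.12) and Hbegf (-1.23 ± 0.16) fell as well. Fgf7, which acts on epithelia, was higher (1.12 ± 0.15), as was the guidance molecule Sema3c (1.47 ± 0.13). Both WT mice lay below clone 1 in Gdnf, Gfra2, Wnt5a and Hbegf.

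A pair of genes were without a count in a whole clone and are named for that, after their values were seen. Strc, which encodes stereocilin of the inner ear (chr2:121363728-121387168, GRCm38), had 150 and 118 counts in clone 1 and 0 in both clone 2 mice, beside 65 and 51 counts in WT. With a floor of 3 counts per library it was at least 46.1-fold lower in clone 2. Tex19.1, a gene of germ cells and placenta (chr11:121146143-121148319), had 0 counts in both clone 1 mice and 42 and 52 counts in clone 2, beside 44 and 21 in WT, and was at least 15.2-fold higher in clone 2. WT libraries held both genes, so each clone lacked a different one. These limits cover counting error only.

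No gene of the macrophage identity list passed. Adgre1, which encodes F4/80, was at 928 and 794 CPM in clone 1 and 949 and 1029 CPM in clone 2 (0.23 ± 0.13, adjusted p = 0.547). Csf1r, the receptor for their growth factor, was at 1359 and 1096 CPM in clone 1 and at 1279 and 1394 CPM in clone 2 (0.15 ± 0.15). Cd68, a glycoprotein of late endosomes, was at 355 and 293 CPM in clone 1 and at 217 and 253 CPM in clone 2 (-0.43 ± 0.13, adjusted p = 0.274). The clones overlapped in Csf1r, while clone 2 was above clone 1 in Adgre1 and below it in Cd68. Of 20 macrophage identity genes tested, 0 passed, 11 were positive and the median was 0.04. The clones did not overlap in 9 of them, 6 with clone 2 above and 3 with clone 2 below. Among all tested genes the shares were 16.9% above and 21.7% below. Lyz2, the lysozyme of macrophages, was at 2624 and 2515 CPM in clone 1 and 3278 and 3497 CPM in clone 2 (0.43 ± 0.15, adjusted p = 0.363). The integrin Itgam (-0.07 ± 0.14), the endotoxin co-receptor Cd14 (0.03 ± 0.20), the mannose receptor Mrc1 (0.02 ± 0.21) and the chemokine receptor Cx3cr1 (0.42 ± 0.12) did not pass, nor did the arginine-degrading Arg1 (-0.44 ± 0.16), the nitric oxide synthase Nos2 (-0.90 ± 0.32) and Cd274, the ligand PD-L1 (-0.83 ± 0.27). Clone 1 mouse 1 was the high library in Nos2, at 171 CPM beside 79.7 CPM in clone 1 mouse 2 and 59.9 and 70.9 CPM in clone 2, and likewise in Cd274, at 292 CPM beside 154 CPM in clone 1 mouse 2 and 114 and 131 CPM in clone 2.

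Genes of lipid-laden tumour macrophages had negative values in 13 of 16 tested members, and 0 passed. Both clone 2 libraries were below clone 1 in 9 of the 16, beside 21.7% of all tested genes. A negative value at an unadjusted p under 0.05 was found in 8, beside 6.31% of all tested genes. The median was -0.50. The fatty acid carrier Fabp5 stood at 81.0 and 84.3 CPM in clone 1 and 47.9 and 54.3 CPM in clone 2 (-0.67 ± 0.11, adjusted p = 0.0798). Lgals3, a galectin (-0.59 ± 0.13), the membrane glycoprotein Gpnmb (-0.49 ± 0.12) and the integrin Itgax, or CD11c (-0.60 ± 0.15), followed. Apoe, the lipid carrier, had the opposite sign, at 4701 and 4591 CPM in clone 1 and 6519 and 7029 CPM in clone 2 (0.57 ± 0.17, adjusted p = 0.276). The lipid receptor Trem2 was at 0.13 ± 0.11 and Spp1, osteopontin, at -1.0 ± 0.33 (adjusted p = 0.329). Of 16 monocyte genes 0 passed, 7 were positive and the median was -0.17. Ly6c1 had a value of 1.56 ± 0.22 (adjusted p = 0.0573) and its near-copy Ly6c2 of -0.11 ± 0.12, and their sum was 105 and 121 CPM in clone 1 and 124 and 140 CPM in clone 2. Ccr2, the receptor by which monocytes leave the marrow, stood at 300.5 and 469 CPM in clone 1 and at 584 and 780 CPM in clone 2 (0.84 ± 0.24, adjusted p = 0.266).

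Among 35 interferon-gamma response genes, Ciita passed, 23 were positive, 17 had both clone 2 libraries above clone 1, and the median was 0.19. Of all tested genes 16.9% had that order, 0.258% were called higher and 47.6% were positive. Gbp2, a guanylate-binding protein (0.63 ± 0.13, adjusted p = 0.152), was at 781 and 856 CPM in clone 1 and 1193 and 1299 CPM in clone 2, while Cxcl11, a chemokine that the same cytokine induces, had a value of -0.98 ± 0.28 (adjusted p = 0.275). Of 40 type I interferon genes 0 passed and 18 were positive, with a median of -0.07. Of 22 genes of MHC class I and the immunoproteasome 0 passed and 20 were positive, with a median of 0.14.

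No receptor for phosphatidylserine passed the test. Of 31 tested genes of recognition and engulfment, 0 passed, 18 were positive and the median was 0.05. The receptor kinase Mertk was at 109 and 73.3 CPM in clone 1 and 109 and 101 CPM in clone 2 (0.24 ± 0.19), and its relative Axl at 916 and 805 CPM in clone 1 and 813 and 921 CPM in clone 2 (0.04 ± 0.13). Xkr8 itself was at 5.04 and 4.29 CPM in clone 1 and at 6.85 and 6.69 CPM in clone 2 (0.57 ± 0.19, adjusted p = 0.347), beside 8.02 and 4.39 CPM in WT. If the macrophages are host cells, as read here, these levels do not check the knockout.

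**Figure D4:**
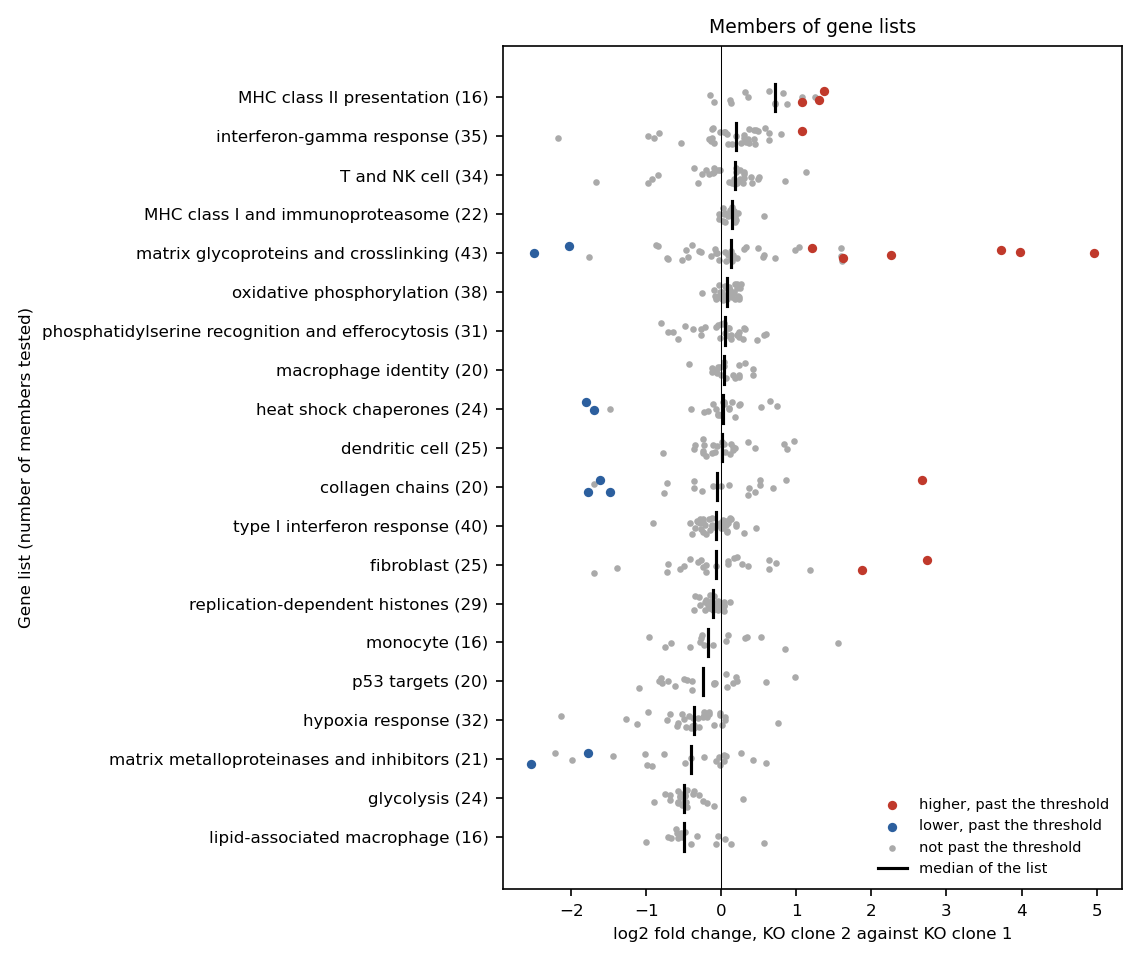
Log2 fold change of clone 2 against clone 1 (horizontal axis) of every tested member of 20 gene lists, with the number tested in brackets and a black bar at each median. Red and blue points passed the test. MHC class II presentation has the highest median, 0.72, and the glycolysis and lipid-associated macrophage lists the lowest, both at -0.50, while the matrix lists have members far out on both sides.

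Markers of other cells were measured beside these groups, and their part in the results was not tested. Of 25 tested fibroblast genes 12 were positive, Dpt and Mme were higher (beside 0.258% of all tested genes), and the median was -0.08. The list summed to 3855 and 5117 CPM in clone 1, to 4938 and 5907 CPM in clone 2 and to 6091 and 9670 CPM in WT, so clone 2 mouse 1 lay between the 2 clone 1 mice. With Rn45s left out of the totals the sums were 3951 and 5271 CPM in clone 1 and 5317 and 6031 CPM in clone 2, and both clone 2 mice were then above clone 1. Pdgfra, a growth factor receptor that marks fibroblasts, was at 84.1 and 149 CPM in clone 1 and at 115 and 165 CPM in clone 2, and the groups overlapped. Col1a1, also a defining marker of fibroblasts, had both clone 2 mice below clone 1 and did not pass. It was at 75.2 and 35.6 CPM in clone 1 and at 19.8 and 13.3 CPM in clone 2 (-1.69 ± 0.38). The sorted cells thus held RNA of fibroblast genes in all 4 libraries. The number of such cells and their RNA per cell cannot be told apart here. The 34 tested T and NK cell genes summed to 462 and 241 CPM in clone 1 and to 347 and 316 CPM in clone 2, and clone 1 mouse 1 was the high library. The list median was 0.18. Cd3e stood at 3.04 and 0.458 CPM in clone 1 and 1.10 and 0.601 CPM in clone 2, while Cd3g (12.2 and 7.68 CPM against 14.6 and 12.7 CPM) and the NK cell receptor Klrd1 (5.87 and 4.10 CPM against 9.82 and 7.55 CPM) had both clone 2 mice above clone 1. Epcam, a marker of epithelial tumour cells, was at 0.130 to 0.377 CPM and Krt8 at 0 to 0.243 CPM over the 4 libraries. Cdh1 of the same list was higher, at 11.7 and 10.8 CPM in clone 1 and 10.5 and 13.4 CPM in clone 2. That tumour and epithelial list summed to 19.0 and 18.8 CPM in clone 1 and to 16.8 and 19.7 CPM in clone 2. Of its 7 tested members 4 were positive and 0 passed. Of 19 listed neutrophil genes among the deposited symbols, 13 were tested and 0 passed. The 19 summed to 372 and 480 CPM in clone 1 and to 257 and 342 CPM in clone 2. Mmp9, a gelatinase that macrophages also make, stood at 182 and 280 CPM in clone 1 and at 97.2 and 128 CPM in clone 2 (-1.02 ± 0.23, adjusted p = 0.175), and the collagenase Mmp8 had a value of -1.45 ± 0.30 (adjusted p = 0.140). S100a8 was at 0.243 to 0.366 CPM over the 4 libraries. Cdh5 of endothelium was at 2.36 and 1.89 CPM in clone 1 and 1.25 and 1.02 CPM in clone 2. Ckm of muscle was at 0 to 0.162 CPM.

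Some called genes were neighbours. All 79 had a position in the mouse genome (GRCm38), and 14 of them lay in 7 pairs within 200000 bases of each other, with the same direction in all 7. Of all 55202 pairs of tested genes within that distance, 55.4% had the same sign. The 7 pairs of called genes are Aspn with Ogn, H2-Aa with H2-Eb1, Hspa1a with Hspa1b, Krt14 with Krt16, Tmem176a with Tmem176b, Xlr5a with Xlr5c, and Gm13051 with Zfp600. Tmem176a and Tmem176b overlap, as do Xlr5a and Xlr5c in the annotation, and Hspa1a with Hspa1b, Xlr5a with Xlr5c and Gm13051 with Zfp600 are copies or relatives, so the members of these 4 pairs can share reads and are not separate observations. The last pair lies in a stretch of zinc finger genes on chromosome 4 (chr4:145670697-147585201), which was singled out after its values were seen and runs from the first to the last gene called higher on the chromosome. Of 12 genes tested there, 5 were higher (Gm13242, Gm13051, Zfp600, Gm13247 and Gm13154), and the median was 1.57. Both clone 2 libraries were above both clone 1 libraries in 8, beside 16.9% of all tested genes. Called genes set the ends of the stretch, so its calls, median and order are partly fixed by that choice. They do not test whether the region differs from other regions. The 40 tested genes in the 2 Mb on either side had a median of 0.08, and the lack of calls among them follows from how the stretch was drawn. Of these 40, 26 were positive and 10 had both clone 2 libraries above both clone 1 libraries. The 908 tested genes of chromosome 4 had a median of 0.12. Gm13154 rose from 5.63 and 6.74 CPM to 20.3 and 22.7 CPM (1.82 ± 0.17, adjusted p = 0.0175). Zfp600 rose from 0.156 and 0.458 CPM to 4.22 and 4.23 CPM (3.80 ± 0.49, adjusted p = 0.0449). These genes are members of 1 family with near-identical copies, so a read of 1 gene may have been counted for another, and the WT mice differed widely, with Gm13154 at 12.4 and 0.399 CPM.

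**Figure D5:**
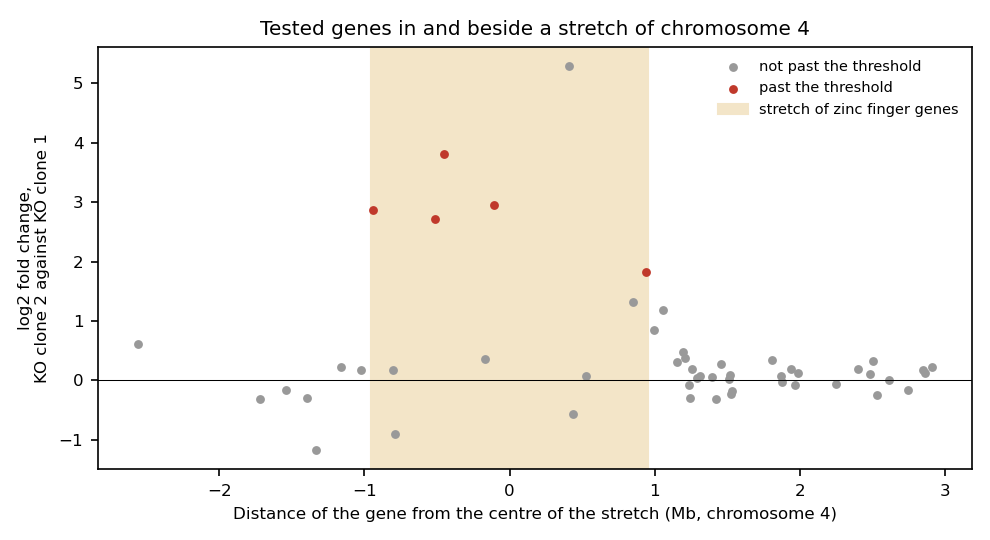
Log2 fold change of clone 2 against clone 1 (vertical axis) of the tested genes in a stretch of zinc finger genes on chromosome 4 (shaded) and in 2 Mb on either side, by distance from the centre of the stretch in Mb (horizontal axis). The stretch was drawn from the first to the last of the 5 genes that passed (red), so none lies outside it, and the 40 genes beside it have a median of 0.08.

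The WT libraries, which took no part in choosing the 79 genes, give the place of each clone. Of the 39 higher genes, 26 had both clone 2 libraries above all 4 others, and 16 had both clone 1 libraries below all 4 others. Of the 40 lower genes, 28 had both clone 2 libraries below all 4 others, and 25 had both clone 1 libraries above all 4 others. A gene can be in both counts where the WT mice lie between the clones. Among all genes whose clones did not overlap, the counts were 1142 and 345 of 2553 with clone 2 above, and 1297 and 756 of 3292 with clone 2 below. With Rn45s left out of the totals the 4 counts for the called genes were 27, 18, 31 and 23 in the same order.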

How the data were processed

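The authors deposited estimated counts for each gene symbol as whole numbers, in 1 column per mouse. The submitters' processing notes list Salmon 0.7.2 and mm10 but not what each was used for. A TruSeq kit with depletion of ribosomal RNA was used, per the labels' protocols. None of the sources used here gives the transcript set, the use of strand or the sorting markers.

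Of 21760 symbols, 1039 had no count in the 4 KO libraries. The counts were tested with edgeR 4.0.16 (R 4.3.3): filterByExpr (minimum count 10, minimum total 15), TMM factors and the two-sided quasi-likelihood F test, with Benjamini-Hochberg adjustment over 15141 genes at 0.05. SEs are absolute log2 fold changes over the root of F. The fit had 2 residual degrees of freedom and a biological coefficient of variation of 0.163. WT libraries were left out because WT mouse 2 stands apart. CPM divides counts by the library total, without TMM. The scripts were tested on simulated data.

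Named singly are the 15 called genes with the largest change in each direction, given a mean CPM of 5 or more and clones that do not overlap, without predicted gene models. Each list adds its called members, or else up to 4 per direction by p, and 20 further genes were fixed. Members and lists were chosen with earlier results of these data known, and no list was tested. Alternatives used RLE or upper-quartile factors, other filters, DESeq2 1.42.0, limma-voom 3.58.1, a replicate block, WT libraries in the fit, removal of Rn45s, and each library left out. Positions are from GENCODE M21 (GRCm38), promoters from RefSeq (GRCm38.p6).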

Additional observations from a re-analysis of the deposited data

How the results depend on the processing

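With 2 mice a side, the number of calls moved with the spread that was estimated. The 79 calls became 222 with no filter on low counts, 29 with a filter at 5 CPM in 2 libraries (66 of the 79 were tested there), 465 with DESeq2 on the 4 libraries, 0 with all 6 libraries in edgeR and 216 to 4023 with 1 library left out; the cause was not tested. DESeq2 on all 6 libraries, added after the data were seen, gave 117, of which 60 were shared. The count was 79 with RLE factors, 75 with upper-quartile factors, 71 with limma-voom, 79 without Rn45s and 87 in a fit of 5 libraries without WT mouse 2. All 79 genes kept their sign in every setting in which they were tested. No label says that a mouse number marks a shared litter, batch or day, so the numbers were not used as pairs. Deviations of same-numbered mice correlated at 0.21 over 15141 genes, which with 2 pairs does not settle whether they pair, and a fit with the mouse number as a replicate block gave 1066 calls, 36.3% of them higher. Signs turned for 15 of the values given. With 1 library left out, Mrc1 ranged from -0.23 to 0.25, Itgam from -0.17 to 0.036, Cd14 from -0.25 to 0.28, Hsf1 from -0.16 to 0.063 and Axl from -0.023 to 0.11. List medians ranged likewise from -0.063 to 0.21 for fibroblast genes, -0.11 to 0.045 for collagens, -0.13 to 0.21 for chaperones, -0.21 to 0.10 for type I interferon, -0.0099 to 0.12 for macrophage identity, -0.25 to 0.056 for monocytes, -0.17 to 0.48 for T and NK cells, -0.11 to 0.20 for dendritic cells, -0.39 to 0.26 for histones and -0.062 to 0.24 for oxidative phosphorylation. With the 5 CPM filter Mrc1 was at -0.000693, the fibroblast median at 0.11 and the dendritic cell median at -0.088, and with the replicate block the collagen median was 0.044. The medians of the class II, glycolysis, hypoxia and lipid-associated lists kept their sign in all 12 alternatives run for them.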

Other observations

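Genes induced by p53, the factor that answers DNA damage, had negative values in 13 of 20 tested members, and 0 passed. Among all tested genes 52.4% were negative. The median was -0.25, 9 had both clone 2 libraries below both clone 1 libraries, and 8 had a negative value at an unadjusted p under 0.05. Among all tested genes these shares were 21.7% and 6.31%. Gadd45a, a stress-induced growth arrest protein, stood at 11.4 and 11.2 CPM in clone 1 and at 4.77 and 5.57 CPM in clone 2 (-1.10 ± 0.16, adjusted p = 0.0592 by edgeR). Plk2, a kinase of the same response, had a value of -0.62 ± 0.11 (adjusted p = 0.105) and Sesn1, a sestrin, one of 0.59 ± 0.14 (adjusted p = 0.183).

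Genes of oxidative phosphorylation, which makes ATP in mitochondria, had positive values in 29 of 38 tested members, but the amounts were small. Among all tested genes 47.6% were positive. The median was 0.07, 0 passed, 1 had a positive value at an unadjusted p under 0.05, and 2 had both clone 2 libraries above both clone 1 libraries. Without clone 1 mouse 1 the median was -0.06.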
